A study of Mus musculus and Homo sapiens with 75 samples.

Results

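Human KO-52 cells given a plasmid for the p30 isoform of C/EBPα answered 2 h of LPS with few called changes. Of 21272 genes tested, 17 were called with spike-in scaling and 98 with TMM scaling, both explained below. With spike-ins, 6 of 20 immediate early genes were lower, against 0.0658% of all genes tested. The data compared here were the 3 libraries labelled p30 LPS and the 3 labelled p30 UT (untreated), 6 of the 75 libraries of the whole series, with every gene in the table. KO-52 is an acute myeloid leukemia cell line with mutations in both CEBPA alleles, so the endogenous mutant gene was present in every group. The paper describes p30 as the only functional C/EBPα in such mutants, so cells without the p30 plasmid may express p30 as well. Cells were electroporated with a plasmid for p30 fused to FLAG and GFP, sorted for GFP after a day and, a further day later, either given LPS from E. coli at 100 ng/mL for 2 h or left untreated. Cells with a p42 plasmid bearing the same tags, or with GFP alone (EV, empty vector), served for comparison, each with 3 untreated and 3 LPS libraries. Expression was transient, so plasmid dose could differ between cells, and no label gives a batch or date.

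LPS, a glycolipid of the outer membrane of Gram-negative bacteria, binds LY96 and TLR4 with the help of CD14, and adaptors such as MYD88 pass the signal to NF-κB and to MAP kinases that act on AP-1. Immediate early genes such as EGR1, FOS and the NR4A genes need no new protein for transcription, and their transcripts are short-lived. NF-κB targets include cytokines, chemokines and its own inhibitors NFKBIA and TNFAIP3. p30 is the C/EBPα isoform that lacks the amino-terminal transactivation region of full-length p42.

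The 6 p30 libraries had 22101134 to 25871966 counts on genes and 0.415% to 0.56% of their counts on ERCC spike-ins, synthetic RNAs added in equal amount. Scaling to spike-ins keeps a global change in RNA per sample, while TMM scaling sets the bulk of genes equal between libraries. In bulk samples, fewer cells and less RNA per cell cannot be told apart. CEBPA, the gene on the plasmid (hg38 chromosome 19, 33299934 to 33302534), had 55034, 55139 and 50501 spike-in-scaled counts untreated and 70481, 61377 and 60006 after LPS. EV libraries without a CEBPA insert ranged from 25511 to 57920 untreated and overlapped these, so the gene did not check the plasmid labels, and the counts do not separate isoforms or plasmid from endogenous transcripts. Marker genes of the myeloid progenitor and leukaemia class were detected, summing to 133000 to 156000 scaled counts untreated and 147000 to 178000 after LPS, with 13 of 14 above 10 counts in some library. The macrophage markers C1QA and MARCO, the B cell marker MS4A1 and the erythroid marker HBA1 were at 0 in all 6 libraries. Summed scaled counts over the 6 libraries were 2500 to 3720 for the monocyte and macrophage class, 22900 to 34200 for mast cell and basophil, 2460 to 3350 for T cell, 455 to 598 for B cell, 1460 to 2650 for erythroid and megakaryocyte, 68.8 to 112 for fibroblast, 1140 to 1490 for epithelial and 1730 to 2210 for endothelial genes, and untreated and LPS ranges overlapped in all but the erythroid class (1460 to 1950 and 1960 to 2650). No member of these 9 classes passed the test under either scaling, apart from KIT in the progenitor class under TMM.

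The promoters of 2 fallen genes are shown because both genes were lower after LPS in p30 cells and their windows hold letters that match well-known response elements. Each window runs from 250 bases before to 50 bases after the start of the GENCODE 44 canonical transcript on hg38, 5′ to 3′ on the strand of the gene. Capitals mark CArG boxes (the serum response factor motif) in EGR1, and TGANTCA (AP-1) followed by GGNNNTTCC (a κB core) in CXCL8. The windows were chosen after the values and matches were seen.
EGR1, chr5:138465229-138465528, plus strand: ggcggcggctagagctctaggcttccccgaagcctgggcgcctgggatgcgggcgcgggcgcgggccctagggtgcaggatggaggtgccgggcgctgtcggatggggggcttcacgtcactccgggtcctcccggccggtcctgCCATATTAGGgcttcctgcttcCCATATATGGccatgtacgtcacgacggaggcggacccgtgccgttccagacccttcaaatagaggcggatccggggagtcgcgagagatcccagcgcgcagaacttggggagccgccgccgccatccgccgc
CXCL8, chr4:73740319-73740618, plus strand: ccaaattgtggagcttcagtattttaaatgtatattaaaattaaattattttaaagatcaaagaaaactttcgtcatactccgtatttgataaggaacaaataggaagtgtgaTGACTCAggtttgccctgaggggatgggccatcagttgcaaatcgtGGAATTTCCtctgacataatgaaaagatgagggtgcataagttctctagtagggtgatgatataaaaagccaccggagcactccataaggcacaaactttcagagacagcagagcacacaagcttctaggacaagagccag
Both strands were searched in the windows of 20032 protein-coding genes. A CArG box was in 1.2% of them and in 3 of the 12 falls named below (EGR3, EGR1, EGR2), TGANTCA in 5.44% and in 1 of 12 (CXCL8), and GGNNNTTCC in 21.3% and in 6 of 12 (EGR3, CD69, HBEGF, CXCL8, NR4A3, RGS1). TGACGTCA, also searched, was in 2.69% and in 1 of 12 (NR4A2). A match describes the letters only.

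Of 21272 genes tested, 14 were lower after LPS (0.0658%) and 3 were higher (0.0141%) with spike-in scaling (adjusted p below 0.05, edgeR quasi-likelihood test). With TMM scaling, 56 genes were lower (0.263%) and 42 higher (0.197%), so the share of higher genes among the calls rose along with their number. Of the 17 spike-in calls, 13 were also TMM calls, and all 98 TMM calls had the same sign of change under both scalings. The scaling moved the median log2 change of all genes from -0.01 (TMM) to 0.08 (spike-in), a shift of less than 0.1. Counts on genes per spike-in count were 7.62 ± 0.175 untreated and 7.75 ± 0.2 after LPS on the log2 scale (SD, n = 3), a difference of 0.132 (two-sided exact permutation p = 0.4, where 0.1 is the smallest possible). The spread between libraries was larger under spike-ins, with a common biological coefficient of variation of 28.7% against 16.1% under TMM. Single libraries decided the counts: the 17 calls became 3 without untreated replicate 2, 7 without untreated replicate 3, 6 without LPS replicate a and 4 without LPS replicate c, and the 98 TMM calls became 900 without LPS replicate b, 20 without untreated replicate 2, 32 without untreated replicate 3, 31 without LPS replicate a and 28 without LPS replicate c.

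**Figure D1:**
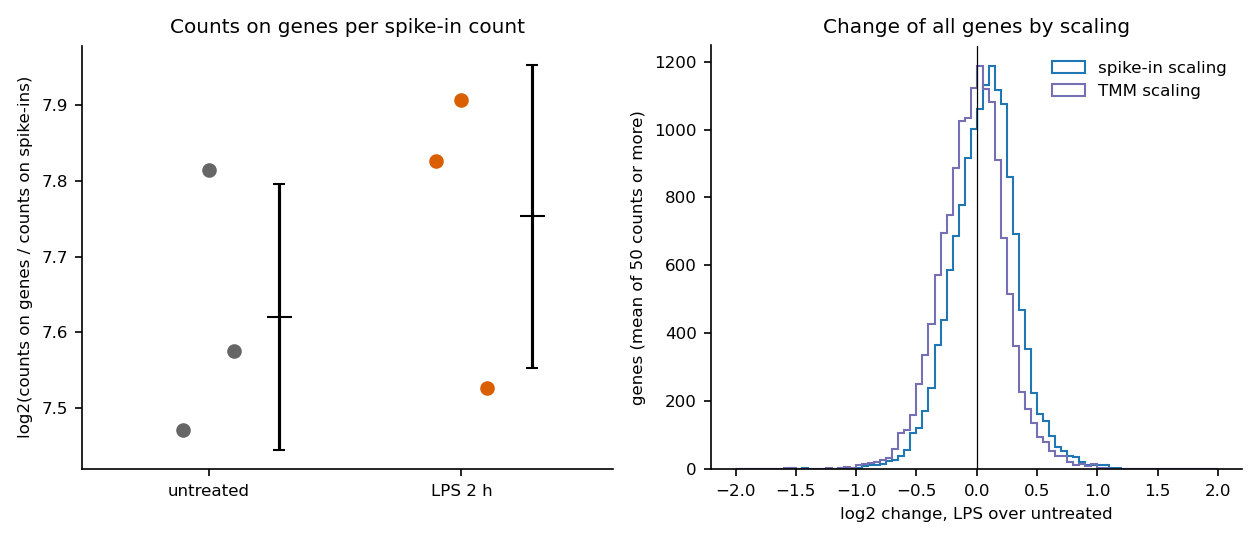
Left, log2 of counts on genes over counts on spike-ins in the 3 untreated and 3 LPS libraries of p30 cells (points) with mean and SD (bars); the groups overlap, with means of 7.62 and 7.75. Right, histogram of the log2 change after LPS of the 14471 genes with a mean of 50 counts or more under each scaling (2 genes under spike-in and 3 under TMM lie outside the axis); the spike-in curve sits to the right of the TMM curve.

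The immediate early transcription factors EGR3, EGR1 and NR4A2 led the falls among genes with a mean of at least 50 counts and no overlap between groups. That the groups of each named fall do not overlap therefore follows from the naming rule. The list of 20 such genes had 6 members lower and 0 higher with spike-in scaling, and 5 lower and 0 higher with TMM. Of all genes tested, 0.0658% were lower with spike-ins and 0.263% with TMM. Its median log2 change was -0.58, beside 0.08 over all genes tested, and 8 of 20 had all LPS libraries below all untreated ones, against 2.03% of all genes. With TMM these were -0.66, beside -0.01, and 13 of 20, against 9.32%. Without untreated replicate 2 the median was -0.38, and 3 members were called in each fit without untreated replicate 2 or 3 or LPS replicate a, b or c.

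EGR3, a zinc finger factor of the early growth response family, had 2654, 3741 and 3487 scaled counts in the untreated libraries and 498, 443 and 508 after LPS. All LPS libraries lay far below all untreated ones, with a log2 change of -2.77 (SE 0.33, edgeR adjusted p 8.53e-13; -2.84 and 0.00398 with TMM). Its relative EGR1 (hg38 chromosome 5, 138465479 to 138469303), induced by growth factors through MAP kinases, had 5531, 7519 and 5828 untreated and 1424, 1346 and 1329 after LPS. The log2 change was -2.20 (SE 0.31, edgeR adjusted p 2.51e-08; 0.00207 with TMM), and the LPS libraries differed from each other by little beside that gap. EGR2 ranged from 383 to 657 untreated and from 137 to 200 after LPS, a log2 change of -1.55 whose adjusted p was 0.0082 with spike-ins and 0.065 with TMM (edgeR).

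NR4A2, an orphan nuclear receptor (hg38 chromosome 2, 156324437 to 156342348), had 1859, 2193 and 2339 scaled counts untreated and 537, 541 and 545 after LPS. The groups did not overlap, as the naming rule required. The log2 change was -1.98 (SE 0.32, edgeR adjusted p 4.82e-06, and 0.00643 with TMM). The paralogs NR4A1 and NR4A3 had log2 changes of -1.42 and -1.45 with adjusted p of 0.012 and 0.0178 (edgeR, spike-in), and NR4A3 did not pass with TMM (0.13). NR4A1 went from 1985 to 2474 counts untreated to 691 to 963 after LPS, so all 3 members of this receptor family were lower with spike-in scaling. EGR3 and EGR1 passed the threshold in all 22 alternative fits, NR4A2 in 21, and EGR2, NR4A1 and NR4A3 in 6, 11 and 5. In the 6 spike-in fits that left out a p30 library, EGR3, EGR1 and NR4A2 passed each time, and EGR2, NR4A1 and NR4A3 each passed in 1.

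Among AP-1 genes, FOS was the only member of 13 past the threshold with spike-in scaling, where 0.0658% of all genes were lower. It had 421, 555 and 524 scaled counts untreated and 181, 182 and 170 after LPS, a log2 change of -1.49 (SE 0.32, edgeR adjusted p 0.0105; 0.0137 with TMM). With TMM, FOSB (-1.36, edgeR adjusted p 0.0422) and FOSL2 (-0.67, 0.0448) were lower as well, beside 0.263% of all genes. The family median was -0.09 with spike-ins. JUN had a log2 change of -0.51 (SE 0.31) and JUNB of -0.16 (SE 0.30), and both missed the threshold under both scalings, as did ATF3 (-0.36, SE 0.32). FOSL1, JUND, ATF2, ATF4, ATF7, BATF and BATF3 had changes between -0.09 and 0.64 with no call. FOS passed in 12 of 22 alternatives and in 1 of the 6 that left out a p30 library under spike-ins.

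The other falls with a mean of at least 50 counts were CD69, HBEGF, CXCL8, RGS1 and SGK1. CD69, a surface lectin of activated leukocytes (hg38 chromosome 12, 9752486 to 9760901), had 2120, 3557 and 2833 scaled counts untreated and 816, 1229 and 619 after LPS, a log2 change of -1.68 (SE 0.31, edgeR adjusted p 0.000438; 0.00161 with TMM). HBEGF, a ligand of the EGF receptor, ranged from 462 to 693 untreated and from 154 to 229 after LPS (log2 -1.62, SE 0.33, edgeR adjusted p 0.00281). CD69 and HBEGF each passed in 19 of 22 alternatives, and in 3 of the 6 that left out a p30 library under spike-ins. CXCL8, the neutrophil chemoattractant interleukin-8 (hg38 chromosome 4, 73740519 to 73743716), had 6410, 16004 and 12563 untreated and 3093, 6326 and 2642 after LPS. The highest LPS library of CXCL8 nearly met the lowest untreated one, its log2 change was -1.54 (SE 0.29, edgeR adjusted p 0.000449; 0.029 with TMM), and DESeq2 with the spike-in factors gave an adjusted p of 0.432. CXCL8 passed in 12 of 22 alternatives, and in 3 of the 6 that left out a p30 library under spike-ins. RGS1, which speeds GTP hydrolysis by G proteins, and SGK1, a kinase of the AGC family, had log2 changes of -1.45 and -1.42 (edgeR adjusted p 0.0285 and 0.012). Their groups did not overlap, as the naming rule required. RGS1 passed in 11 and SGK1 in 14 of 22 alternatives, each in 1 of the 6 that left out a p30 library under spike-ins. The last falls, LOC124901337 and LOC124901421, had at most 86 counts in any p30 library.

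The 3 rises with spike-in scaling rested on few counts. POTEG (chromosome 14) had 50.7, 23.8 and 32.9 scaled counts untreated and 134, 131 and 107 after LPS, a log2 change of 1.77 (SE 0.41, edgeR adjusted p 0.0259), and it belongs to a family of near-identical genes, so its reads are uncertain. It passed in 9 of 21 alternatives. MYLK3, named after its values were seen, had 0 counts in each untreated library and 4, 7 and 24 after LPS. NLRP12, named the same way, had 0, 1 and 0 untreated and 0, 12 and 8 after LPS, so its groups overlapped.

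Rises of NF-κB targets were called with TMM scaling only, although their log2 changes were no smaller with spike-ins (TRAF1 1.05, ZC3H12A 0.94 and TNFAIP3 0.58). The list of 15 IκB proteins and A20 feedback inhibitors had 0 members called with spike-ins and 3 higher with TMM (0.197% of all genes), with a spike-in median of 0.32. TRAF1, a signaling adaptor (hg38 chromosome 9, 120902393 to 120929173), had 780, 900 and 882 scaled counts untreated and 1669, 1768 and 1861 after LPS (TMM log2 0.97, edgeR adjusted p 0.0115; 0.341 with spike-ins). ZC3H12A, the nuclease regnase-1 that degrades inflammatory transcripts, had 2205, 2557 and 2346 untreated and 4629, 4278 and 4723 after LPS (TMM 0.86, edgeR adjusted p 0.00293; 0.508 with spike-ins). Both genes were higher in all LPS than in all untreated libraries, and 8 of the 15 list members lay wholly above, against 12.3% of all genes with spike-ins (6 of 15 against 9% with TMM). TNFAIP3, the deubiquitinase A20, had a TMM log2 change of 0.50 (edgeR adjusted p 0.0458), while NFKBIA had 0.02 (0.988). Of the 34 surface and adhesion genes of the NF-κB response, 2 were higher and 1 was lower with TMM (0.197% and 0.263% of all genes). The higher genes were TNFAIP6, a hyaluronan-binding protein (1.33, edgeR adjusted p 0.0399), and the pentraxin PTX3 (1.00, 0.00643). The lower gene was CD69 (-1.77), also the only call in this list with spike-ins (-1.68). The repressor BCL6 (0.99, edgeR adjusted p 0.00982) was the single call in the SOCS and STAT list.

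The remaining genes named from the TMM fit were selected by the same rule after that fit had been seen. Higher were FBXO48, IPCEF1, PARS2, TNFAIP8L3, ZNF436, PPP1R16B and CNKSR3, with TMM log2 changes from 0.96 to 1.12. PPP1R16B, a regulatory subunit of protein phosphatase 1, had 2980, 3390 and 2934 scaled counts untreated and 7329, 6542 and 5929 after LPS. Lower was PDE4B, a cAMP phosphodiesterase (-1.23, edgeR adjusted p 0.00302), with 377 to 537 untreated and 172 to 278 after LPS. Of 13 genes listed as MAP kinase phosphatases and mRNA decay feedback, 2 were lower with TMM, TRIB1 (-1.09) and DUSP1 (-0.70), beside 0.263% of all genes. The cytokine OSM was lower as well, at -0.82 (edgeR adjusted p 0.00815, 0.0323 and 0.018 for TRIB1, DUSP1 and OSM). KLF6 (-0.64), DNAJB9 (-0.85), XBP1 (-0.46) and HSPH1 (-0.47) were lower with TMM (edgeR adjusted p 0.00962, 0.0441, 0.029 and 0.0334). The 13 heat shock genes had a spike-in median of -0.32 with 0 calls, and their part in the other changes was not tested.

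The classical cytokines of the LPS response had no call in p30 cells. TNF had 810, 1107 and 1194 scaled counts untreated and 1385, 1575 and 1631 after LPS, a log2 change of 0.56 (SE 0.31, 95% interval -0.04 to 1.16, edgeR adjusted p 1). IL1B ranged from 4455 to 6725 untreated and from 6059 to 7747 after LPS (0.24, SE 0.29, 95% interval -0.32 to 0.81). The TNF libraries did not overlap with spike-in scaling, whereas those of IL1B did. Among chemokines, CCL3 changed by -0.85 (SE 0.31, edgeR adjusted p 0.938), CCL2 by -0.28 (SE 0.30), CCL5 by -0.35 (SE 0.32) and CXCL10 by 0.38 (SE 0.35), with no call under either scaling. IL6 had at most 15.8 scaled counts in a p30 library and a change of -0.97 (SE 0.75), with no call. Of 25 cytokine genes tested 1 was lower (HBEGF), and of 14 chemokine genes 1 was lower (CXCL8), beside 0.0658% of all genes. The list medians were -0.08 and -0.24 (spike-in). The cytokine median was 0.21 without untreated replicate 2.

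The receptor complex was transcribed, and 0 of its 22 tested genes were called in either direction by edgeR under either scaling. Of all genes, 0.0658% were lower and 0.0141% higher with spike-ins, and 0.263% and 0.197% with TMM. Beside shares this low, 0 calls do not set these genes apart from other genes. The same applies to the other lists without a call. TLR4 had 815, 1147 and 815 scaled counts untreated and 757, 836 and 586 after LPS (-0.35, SE 0.31). LY96 (-0.29, SE 0.40), CD14 (-0.20, SE 0.38) and MYD88 (0.20, SE 0.30) also missed the threshold. RELB, which was no named gene by rule, had the highest change of the 5 NF-κB subunits (0.81, SE 0.31, edgeR adjusted p 1; 0.149 with TMM), and the subunit median was 0.40. No member was called in the interferon-stimulated (37 tested), ATF4 target (27), cell cycle (43), cholesterol (19), C/EBP (7), neutrophil granule (14), ribosomal (54) and mitochondrial (13) lists under either scaling, and across all tested genes 753 had an unadjusted p under 0.05 with spike-ins and 2748 with TMM (edgeR).

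**Figure D2:**
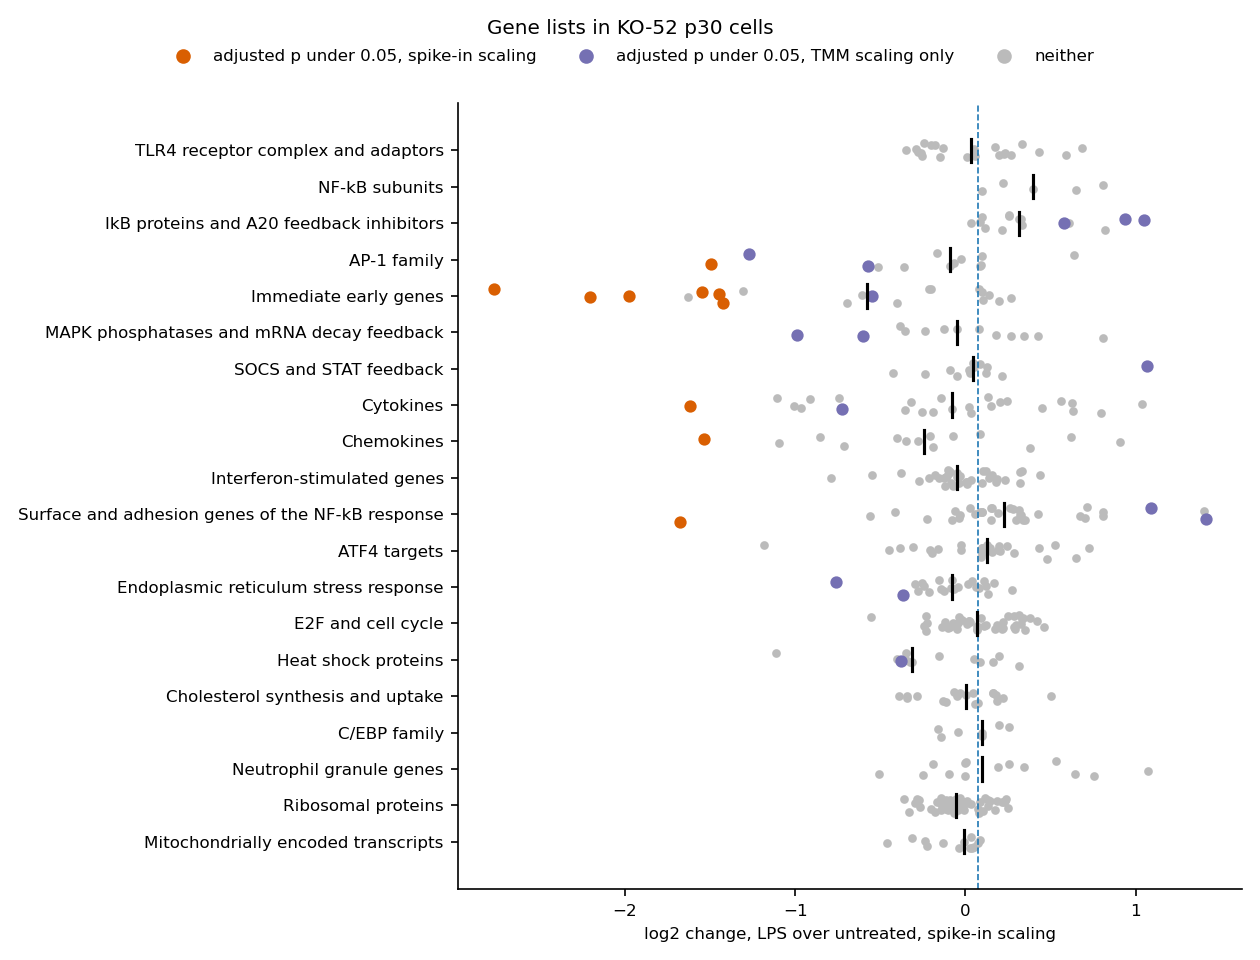
Log2 change after LPS in p30 cells with spike-in scaling for every tested member of 20 gene lists (points), with the list median (black bar) and the median of all genes tested (dashed line, 0.08). Orange points passed the spike-in test and purple points only the TMM test; the immediate early list reaches from -2.77 to 0.26 and holds 6 orange points.

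The response of p30 cells was then set beside that of p42 cells, by testing the difference between the LPS changes. With its sign kept, the change was lower in p30 for 46 genes (0.216% of those tested) and higher for 1 (0.0047%), and 47 genes differed in all, against 64 with TMM. The spike-in median of this difference over all genes was -0.12 (-0.03 with TMM). The 46 genes were selected by this difference, so their lower change in p30 than in p42 follows from the selection. Their median log2 change was 0.17 in p30 (range -5.65 to 2.19) and 2.91 in p42 (range 0.41 to 7.80). Of them, 43 rose in p42, 0 rose and 4 fell in p30 (EGR2, CXCL8, NR4A3 and SGK1), 31 belonged to a gene list and 39 were also lower with TMM.

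The chemokine CCL4 had 104, 255 and 192 scaled counts untreated and 173, 211 and 98.9 after LPS in p30 cells, beside 46.8, 113 and 82.4 and then 1844, 3127 and 3804 in p42 cells. The difference in log2 change was -5.36 (SE 0.48, edgeR adjusted p 9.88e-25; 2.73e-05 with TMM). IL1A, interleukin-1α, had a p30 log2 change of 0.80 and a difference of -4.89 (SE 0.49, edgeR adjusted p 1.18e-19), and EBI3, a subunit of interleukin-27 and interleukin-35, had 0.20 and -4.45 (SE 0.54). CCL3 differed by -4.13 (SE 0.45), TNF by -3.40 (SE 0.44) and IL1B by -3.17 (SE 0.41), each with an edgeR adjusted p of at most 6.11e-11 with spike-ins and at most 5.32e-05 with TMM. IL6 differed by -6.08 (SE 0.99, edgeR adjusted p 1.42e-06; 0.0387 with TMM). For LOC105375914, a locus without a gene name, the difference was -4.30 (SE 0.60). The Notch ligand DLL4 differed by -4.36 (SE 0.91, edgeR adjusted p 0.00109), but not with TMM (0.501). By list, 8 of 14 chemokines, 7 of 25 cytokines, 6 of 15 IκB and A20 inhibitors, 5 of 34 surface genes and 4 of 20 immediate early genes had the lower change in p30. So did 1 of 13 genes of the MAP kinase phosphatase and mRNA decay list. The share over all genes tested was 0.216%, and no other list held such a gene. TRAF1, ZC3H12A and TNFAIP3 were thus higher after LPS in p30 cells with TMM and, at -2.26, -1.75 and -2.25, changed less than in p42 cells. The gene in the other direction, BATF2, rested on few counts. It fell in p42 (-2.99, edgeR adjusted p 0.0063) and had a change of 0.89 with no call in p30, a difference of 3.88 (SE 0.95, edgeR adjusted p 0.0233) that was 2.16 with an edgeR adjusted p of 1 without p42 untreated replicate 2.

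**Figure D3:**
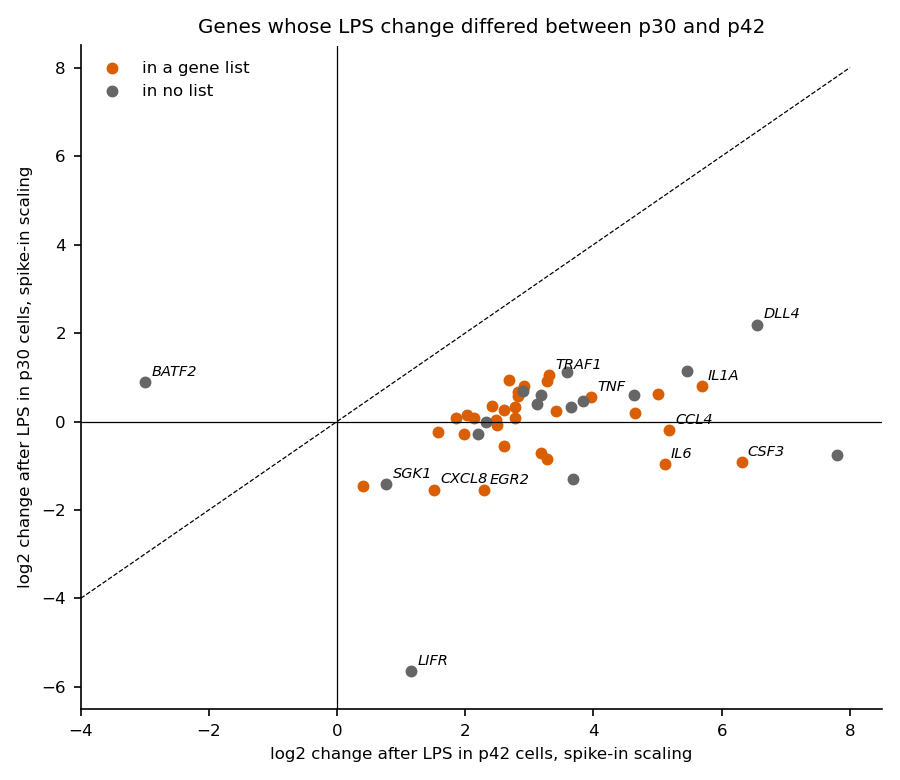
Log2 change after LPS in p42 cells (horizontal) and p30 cells (vertical), spike-in scaling, for the 47 genes whose change differed, orange where the gene is in a list; the dashed line marks equal change. The 46 genes below it were chosen by this difference, and their p30 changes center near 0 (median 0.17) beside 2.91 in p42.

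Against the EV cells, whose response used libraries of its own, the p30 response differed in 1 gene, RN7SL1 (0.0047%), with 748 genes at an unadjusted p under 0.05. No gene differed with TMM (edgeR, 1044 at unadjusted p under 0.05), none with DESeq2 and spike-in factors (690), and 4 with DESeq2 and TMM factors. RN7SL1, a signal recognition particle RNA with near-identical copies, ranged from 603 to 925 scaled counts untreated and from 740 to 1032 after LPS in p30, and from 84.8 to 476 and 1090 to 1676 in EV. The difference was -2.11 (SE 0.45, edgeR adjusted p 0.0468; 0.871 with TMM). It was lost without 8 of the 12 libraries of this contrast, left out in turn.

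The falls of p30 cells were also found in EV cells. Of the 14 genes lower in p30, 11 were lower in EV (0.141% of all genes) and 3 in p42 (0.0188%), while EGR2 and CXCL8 rose in p42 (0.705%; spike-in, edgeR). In fits added after the values were seen, the 11 became 5 without EV untreated replicate 3, 8 without EV LPS replicate 1 or 2 and 10 without EV untreated replicate 1, and all 14 stayed below 0 in EV in each of the 6 fits without an EV library. The log2 change of EGR3 was -2.77 in p30, -2.29 in EV and -1.77 in p42, and that of EGR1 was -2.20, -1.71 and -0.60. CXCL8 had -1.54 in p30, -2.55 in EV and 1.51 in p42, and CD69 had -1.68, -1.88 and -0.01. FOS (-0.46) and NR4A1 (-0.81) did not pass in EV. With TMM, 48 of the 56 genes lower in p30 were lower in EV (9.16% of all genes) and 17 in p42 (0.244%), and 36 of the 42 higher genes were higher in EV (8.03%) and 32 in p42 (1.34%). With spike-ins the EV response held 1638 higher (7.7%) and 30 lower genes, and its median over all genes was 0.41 against 0.02 with TMM. Single libraries decided these counts, with 101 higher and 7 lower without EV untreated replicate 3, 96 and 14 without EV LPS replicate 1, 159 and 17 without EV untreated replicate 1, 330 and 11 without EV LPS replicate 2, 2769 and 39 without EV untreated replicate 2 and 2893 and 35 without EV LPS replicate 3. The p30 minus EV median over all genes was -0.34 with spike-ins and -0.03 with TMM, so differences between these groups are read relative to that shift.

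**Figure D4:**
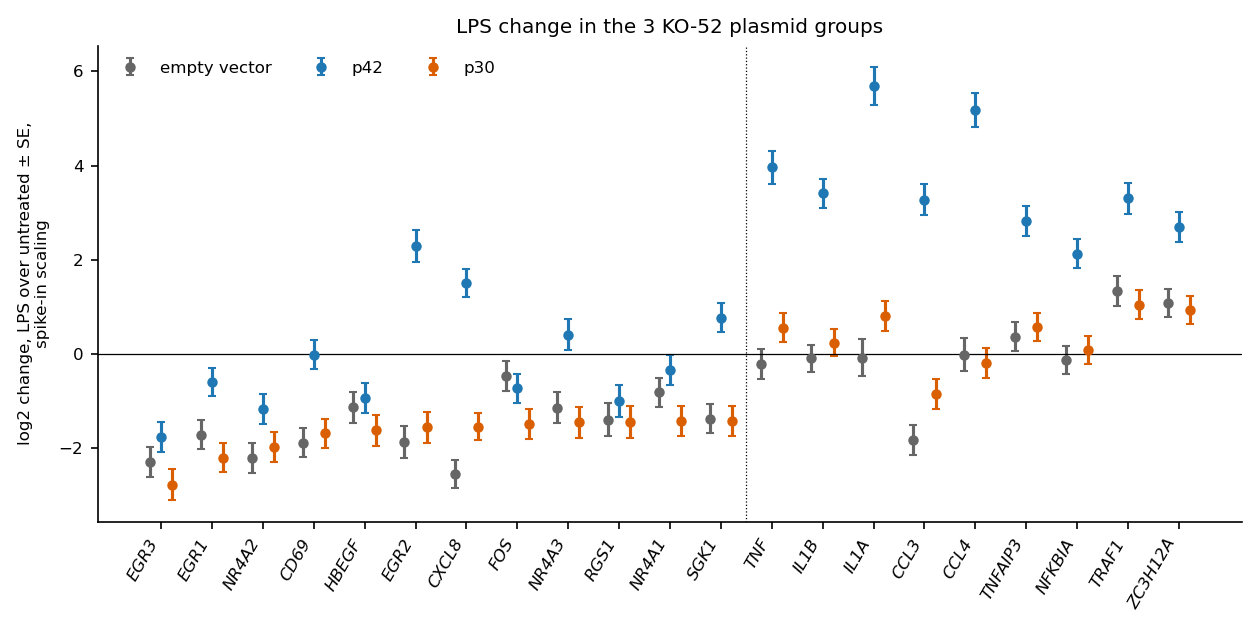
Log2 change after LPS (spike-in scaling, points) with SE (bars) in EV, p42 and p30 cells for the 12 called falls of p30 with a mean of at least 50 counts (left of the dotted line) and 9 genes of the NF-κB response (right). The left-hand genes lie below 0 in p30 cells, by selection, and also in EV cells. In p42 cells EGR2, CXCL8, NR4A3 and SGK1 lie above 0. On the right the p42 points lie above 2 while the p30 points lie between -0.85 and 1.05. All 9 genes on the right are among the 46 called for a lower change in p30 than in p42. Their gap between p42 and p30 therefore follows from that choice.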

How the data were processed

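RNA-seq of KO-52 cells was deposited as a table of raw counts, whole reads per gene and per spike-in, that the authors made from poly-A-selected stranded libraries with Bowtie2 (2.4.4), an aligner without splicing, on hg38 and featureCounts (Subread 2.0.3) with RefSeq genes, keeping uniquely mapped reads. Reads across splice junctions and in near-identical genes can therefore be lost. Groups came from the sample labels, and the 6 LPS columns of p42 and p30 were matched only to a group, so their libraries are called a, b and c.

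Size factors were medians of ratios over the 53 of 92 spike-ins counted in all 18 KO-52 libraries. Of 59251 genes, 21272 passed filterByExpr. The quasi-likelihood test of edgeR (4.0.16, R 4.3.3) was fitted to all 18 libraries with 1 coefficient for each of the 6 groups, with Benjamini-Hochberg adjustment. No fold threshold was set. The fit with spike-ins gave every gene the spread of the abundance trend (infinite prior degrees of freedom), and the TMM fit did not (median 8.93). Alternatives were TMM, RLE, spike-in totals and library totals, DESeq2 (1.42.0), no filter, the 6 p30 libraries alone, and leaving out each library. Named were the 12 largest falls and rises past the threshold with a mean of at least 50 counts and no overlap between groups, called list members, AP-1, receptor and cytokine genes, and up to 6 genes per direction with the largest differences from p42 or EV. Naming by the same rule under TMM was added after the values were seen. The members and lists were chosen with earlier results of these data known. Intervals are the estimate ± the normal quantile times SE. The study describes the replicates as biological. Libraries of a group differed by more than sampling noise (chi-square per degree of freedom 4.39 to 32.4). Gene positions and start sites came from GENCODE 44.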

Additional observations from a re-analysis of the deposited data

Results flagged for a closer look

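The LPS change differed between p30 and p42 cells, by a test of the difference itself, in 47 genes. Among genes averaging 50 counts or more across the p30 and p42 libraries, the largest differences on the log2 scale were in CCL4 (-5.36), IL1A (-4.89), EBI3 (-4.45), DLL4 (-4.36), LOC105375914 (-4.30) and CCL3 (-4.13), all with the lower change in p30. DLL4 and LOC105375914 averaged only 12.7 and 26.5 counts in the p30 libraries and reached 50 through the p42 libraries. BATF2 (3.88), below a mean of 50 counts, was the single gene with the higher change in p30, at 0.89 beside a fall of -2.99 in p42. BATF2 and DLL4 did not pass with TMM scaling (edgeR adjusted p 0.43 and 0.501).

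Between p30 and EV cells the change differed in 1 gene, RN7SL1 (-2.11), which did not pass with TMM.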

How the results depend on the processing

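With spike-in totals the p30 counts stayed at 3 higher and 13 lower. The 17 calls (3 higher, 14 lower) became 98 (42, 56) with TMM, 97 (42, 55) with RLE, 92 (41, 51) with library totals, 390 (173, 217) with DESeq2 and its own size factors and 396 (167, 229) with DESeq2 and TMM factors, a fit added after the data were seen. DESeq2 with spike-in factors called 6 higher and 7 lower, no filter on low counts 1 higher, and the 6 p30 libraries alone 8 higher, or 68 (30, 38) with TMM. Of the TMM calls, 32 (6 higher, 26 lower) had a log2 change beyond 1. Leaving out 1 p30 library in turn gave 3 to 16 calls (0 to 2 higher, 3 to 15 lower) with spike-ins and 20 to 900 (8 to 153 higher, 12 to 747 lower) with TMM. Genes differing from p42 numbered 40 to 64 under the other scalings, no filter and DESeq2 with spike-in factors, 35 to 66 without 1 library, 92 with DESeq2 and its own size factors and 94 with DESeq2 and TMM factors. Genes differing from EV numbered 0 with the other scalings, DESeq2 on spike-in factors or no filter, 4 with DESeq2 and its own or TMM factors, and 0 to 3 without 1 library. The cause of these changes was not tested. The difference in counts per spike-in count kept its sign in every alternative (0.056 to 0.245, exact permutation p from 0.2 to 1).

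No paired analysis was possible because the numbered names of the p30 and p42 LPS columns are also names of libraries of another cell line, so these columns were matched to a group only and their numbers were not used. No called change in a named gene of the p30 response turned its direction in any setting.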

Other observations

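Outside the gene lists, the TMM fit held further changes in p30 cells, named here after their values were seen. KIT, the receptor of stem cell factor, had 402, 495 and 455 spike-in-scaled counts untreated and 1024, 1002 and 785 after LPS, with no overlap between groups (TMM log2 0.96, edgeR adjusted p 0.00194; 0.376 with spike-ins). CYP1A1, a target of the aryl hydrocarbon receptor, was higher at 0.82 (edgeR adjusted p 0.0188). NLRP3, the inflammasome sensor, was lower at -1.05 (edgeR adjusted p 0.00113), as were the G protein regulator RGS2 (-0.96), the kinase MAP2K6 (-1.01) and the Krüppel-like factors KLF11 (-0.93) and KLF9 (-0.77). None of these passed with spike-in scaling, where each had the same sign.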
